A study of Mus musculus with 18 samples.

Results

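Genes that encode Polycomb proteins (10 of 18659 rows of the table of all replicates) were followed across 16 RNA-seq libraries of serum-grown mESCs, mouse embryonic stem cells of the male line E14. They were chosen by name: *Ezh2*, *Eed*, *Suz12*, *Jarid2* and *Mtf2* of Polycomb repressive complex 2 (PRC2), and *Rnf2*, *Ring1*, *Cbx7*, *Kdm2b* and *Pcgf6* of PRC1. All 10 had a row in the table, and all 10 passed the filter on low values (a summed value of at least 10) in each fit. Except for 1 untreated library, the cells had received siRNA for 24 h, and RNA depleted of rRNA was sequenced. The question was whether these genes moved after knockdown (KD) of *Stag1*, a cohesin subunit, and each KD was read against scrambled siRNA (scr) of the same replicate set. SP is the SmartPool pool of siRNAs to *Stag1*, and 3p and 5p are siRNAs toward its 3′ and 5′ ends. By the catalogue numbers in the paper, the siRNAs of 3p are also part of the SP pool, and 5p is 1 custom duplex. SATS is an enzymatically derived siRNA to transcripts from an upstream start of *Stag1*. Set 1 held 1 scr library and 3 SP libraries (1a, 1b and 1c), and in sets 2 and 3 scr and each of the 4 siRNAs had 1 library per set. Set 2 also held 1 untreated library and set 3 held 1 library of luciferase siRNA, a second control. The paper lists the luciferase siRNA as enzymatically derived, like SATS, which is read against scr here. The labels name no genetic change in any group, and the groups differ only in the siRNA, which the untreated cells lacked. The sources do not say whether the sets were separate cultures or passages, so p-values measure the spread between these samples, which may be technical. 2 further libraries, from 2i culture, were not analysed here.

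Polycomb proteins keep developmental genes silent in embryonic stem cells. PRC2 places methyl groups on lysine 27 of histone H3 through EZH2, which works only when held by SUZ12 and EED. PRC1 places ubiquitin on histone H2A through RING1B, the product of *Rnf2*, or its close relative RING1A, the product of *Ring1*. Canonical PRC1 is brought to methylated H3 by a chromobox protein such as CBX7, while variant PRC1 reaches its sites by other partners. Among these, KDM2B binds DNA rich in unmethylated CpG and PCGF6 works with a group of sequence-specific factors.

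The values are reads per gene divided by 1 size factor per library, so they compare libraries for 1 gene. The libraries of set 1 were shallow, with 1883691 to 4321867 reads on genes other than the ribosomal RNA precursor *Rn45s*, against 25978759 to 36332493 in sets 2 and 3. *Rn45s* took 69.2% to 79.1% of the reads on genes in set 1 and 14.7% to 23.9% in sets 2 and 3, although rRNA had been depleted. *Stag1* stood at 25.4% to 32.8% of scr in the SP libraries of set 1. It stood at 17.3% to 23.5% in the SP, 3p and 5p libraries of sets 2 and 3, at 50.5% and 49.7% in SATS, at 86.3% in the untreated library and at 104% in the luciferase library. The pluripotency markers *Pou5f1*, *Nanog* and *Sox2* had lowest values of 7128, 2011 and 2191 over the 16 libraries. In limma with the replicate set as a block, 0 of 8 pluripotency markers passed the test in any comparison with scr. That fit called 0% of all genes in SP over 3 sets and 0.109% to 2.64% in sets 2 and 3, so it does not show the markers unchanged. The paper reports *Nanog* and *Esrrb* among the genes lowered by SP. In bulk RNA, fewer cells of a type and less RNA per cell cannot be told apart.

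Per kilobase of exon in scr, the accessory PRC2 genes stood highest and *Ring1* lowest. *Jarid2*, whose product joins PRC2 and helps its recruitment, had a mean level of 1044 ± 248 per kb (SD, n = 3 sets). *Mtf2*, a Polycomb-like subunit that ties PRC2 to CpG-rich DNA, had 996 ± 302 per kb. They did not differ beyond their spread, with *Jarid2* higher in 1 of the 3 scr libraries. *Suz12* (769 ± 127 per kb) and *Eed* (647 ± 219 per kb) came next, and *Ezh2*, the catalytic subunit of the same core, was lower at 316 ± 76.1 per kb. Between *Mtf2* and *Cbx7*, the ranges of neighbours overlapped across sets although the order was the same within all 3 scr libraries.

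*Rnf2* had 411 ± 92.7 per kb in scr, *Cbx7* 254 ± 45.9, *Kdm2b* 204 ± 19.4 and *Pcgf6* 185 ± 16.7 (SD, n = 3). *Ring1* had 29.4 ± 5.13 per kb, and its range lay below that of every other member. The level of *Rnf2* per kb was 7.86 to 18.8 times that of *Ring1* over the 16 libraries (median 13.2). *Ring1* rested on 12 to 25 reads in the libraries of set 1 and on 162 to 268 in sets 2 and 3, so its differences are the least precise of the 10.

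**Figure D1:**
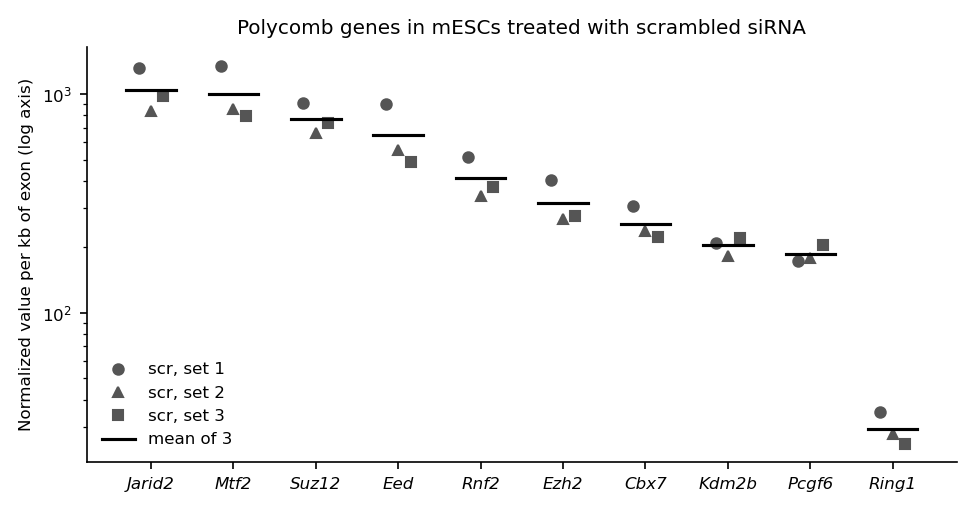
Normalized value per kilobase of exon (log axis) of the 10 Polycomb genes in the 3 libraries of scrambled siRNA. Each point is 1 scr library, by set, and the line is the mean of the 3. *Ring1*, at 29.4 per kb, stands apart from the other 9 genes, which lie between means of 185 and 1044 per kb.

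Of the 10 members, 8 were higher in scr of set 1 than in scr of sets 2 and 3. *Mtf2* had 7654 in set 1 against 4841 and 4533, and *Jarid2* had 12817 against 8154 and 9459. *Kdm2b* (2270.2 against 1983 and 2394) and *Pcgf6* (864 against 898 and 1023) were the exceptions. Because of these gaps between sets, each library was set against scr of its own set.

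**Figure D2:**
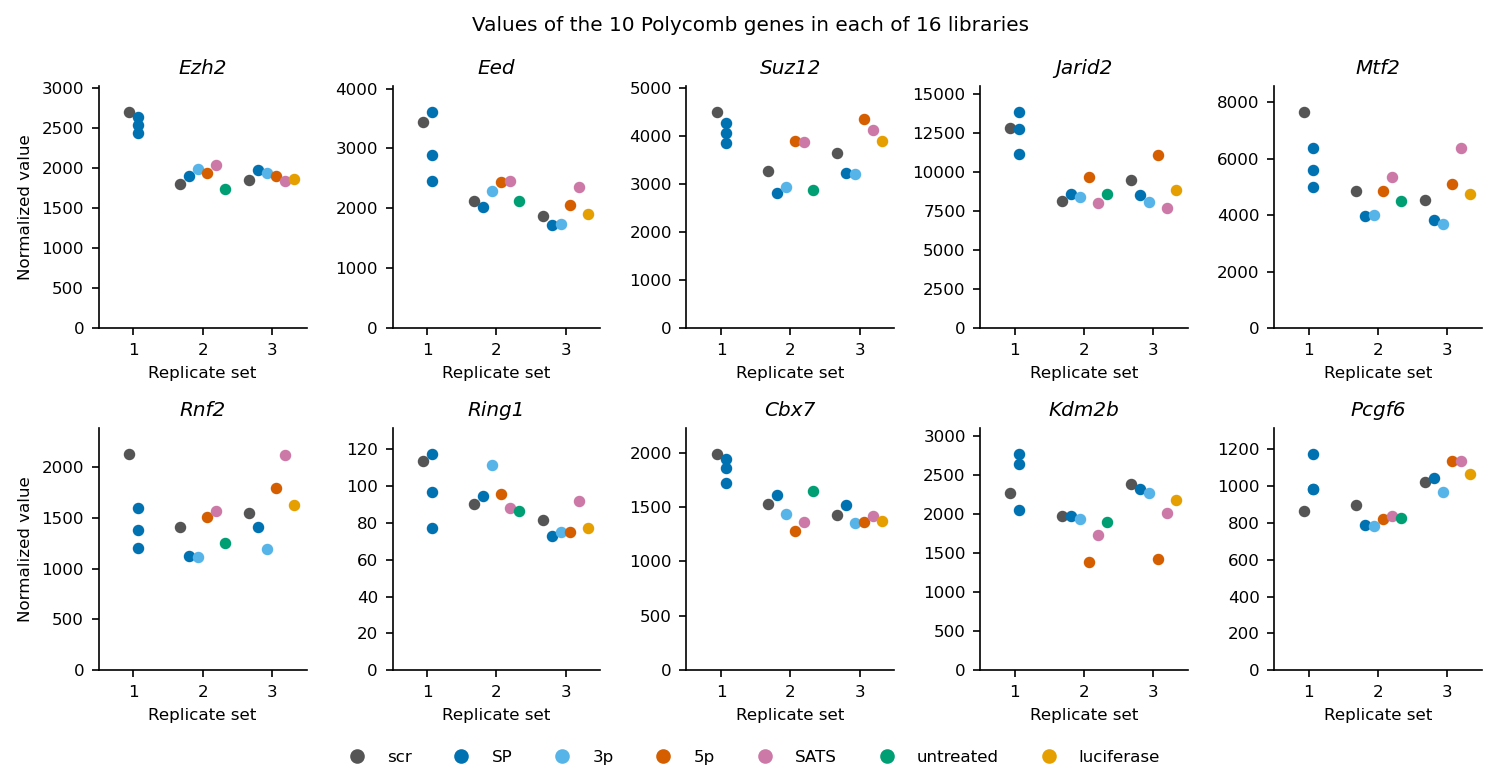
Normalized value (vertical axes from 0, 1 scale per gene) of each of the 10 Polycomb genes in the 16 libraries, by replicate set on the horizontal axis and coloured by siRNA or control. In sets 2 and 3 *Kdm2b* is lowest in 5p (1386 and 1427), and *Suz12*, *Mtf2* and *Rnf2* are higher in 5p and SATS than in SP and 3p.

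SP against scr over the 3 sets gave no call among the members in limma, edgeR or DESeq2. *Rnf2* was at 2129.5 in scr of set 1 and at 1594, 1376 and 1200.0 in SP libraries 1a, 1b and 1c. In set 2 it was at 1405 in scr and 1119 in SP, and in set 3 at 1552 and 1406. All 5 SP libraries were thus below the scr of their own set, and the ranges of scr and SP overlapped across sets. Of the 5, 3 share the 1 scr library of set 1, and the share of all genes with this pattern was not counted. The log2 fold change of *Rnf2* was −0.36 (standard error 0.106 with the replicate set as a block, 95% interval −0.62 to −0.11, limma adjusted p = 0.759).

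*Mtf2* had the same form. It was at 7654 in scr and 6369.6, 5593 and 5001 in SP of set 1, at 4841 and 3969 in set 2, and at 4533 and 3829 in set 3. Its log2 fold change was −0.32 (standard error 0.073 with the block, 95% interval −0.50 to −0.15, limma adjusted p = 0.759). *Suz12* was lower in SP in each set as well, with a log2 fold change of −0.18 (95% interval with the block −0.34 to −0.02). The other 7 members had log2 fold changes between −0.13 and 0.04.

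Over the 3 sets, limma called 0 of 10 members without the block and 0 with it, where the share of all 15970 genes called was 0% in both fits. Over all genes, edgeR called 106 with the block and 0 without it, DESeq2 called 53 and 1, and limma with the block called 509 without set 1. At an unadjusted limma p under 0.05 there were 0 members without the block and 3 with it, *Mtf2*, *Rnf2* and *Suz12*. With the block, 5.85% of all genes were under that threshold. edgeR and DESeq2 on the recovered reads called 0 members with or without the block. The median log2 fold change of the 10 members was −0.07, beside 0.01 over all genes. In set 1, the summed level of the 8 pluripotency markers was 64140.0 in scr and 36369 to 52419 in the 3 SP libraries. The part of that difference in the values of set 1 was not tested.

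In sets 2 and 3 the 4 siRNAs were fitted together with scr (10 libraries, 16490 genes). Without the block limma called 0 of 10 members for each of SP, 3p, 5p and SATS, with 1 member at an unadjusted p under 0.05 in each. Under that unadjusted threshold were 2.49%, 1.73%, 3.63% and 3.94% of all genes. The shares of all genes called were 0.00606% for SP, 0.00606% for 3p, 0.0121% for 5p and 0% for SATS. Samples of the same set deviated together, so the fit with the set as a block is given beside these values. With the block, the only call among the 10 members was *Kdm2b* in 5p, and the shares of all genes called were 0.746% for SP, 0.285% for 3p, 2.37% for 5p and 2.64% for SATS. All 4 comparisons share the 2 scr libraries.

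*Kdm2b* fell in 5p, which is 1 siRNA sequence. Its value was 1386 in 5p of set 2, where scr was at 1983, SP at 1979.8, 3p at 1937, SATS at 1735 and untreated cells at 1897. In set 3 its value was 1427 in 5p, 2394 in scr, 2323 in SP, 2277 in 3p, 2016 in SATS and 2187 in luciferase. Both 5p libraries lay below the other 10 libraries of these sets, which ran from 1735 to 2394. The share of all genes that lie so was not counted. The log2 fold change was −0.63 (95% interval −0.80 to −0.47), to 64.6% of scr, with a limma adjusted p of 0.000926 with the block and 0.706 without it. edgeR and DESeq2 with the block made the same call. It was lost when scr of set 3 was left out (log2 fold change −0.59, adjusted p = 0.0613), and passed the threshold without any other 1 of the 4 libraries of 5p and scr. Such a fit leaves 1 library in a group, which is assumed to vary like the other groups.

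*Kdm2b* makes a long transcript that encodes the demethylase and a short one that keeps the CpG-binding part, and a value per gene does not separate them. The annotated exons of *Kdm2b* share 627 bases (5.77%) with *Rnf34* and 199 bases (1.83%) with *A930024E05Rik* on the other strand. *Rnf34* was at 104% and 123% of scr in 5p of sets 2 and 3, and *A930024E05Rik* at 79.1% and 89.1%. The library kit keeps strand, but whether each library was counted by strand is not given in the sources used here.

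The remaining members in 5p gave log2 fold changes between −0.16 and 0.25, none past the threshold. *Suz12* was at 0.25 (95% interval with the block 0.10 to 0.40, limma adjusted p = 0.0798) and *Jarid2* at 0.24 (0.05 to 0.43, adjusted p = 0.207). *Jarid2* had 9665 and 11068 in 5p, above the other 10 libraries of these sets, which ran from 7711 to 9459. Here too the share of all genes was not counted. *Cbx7* was at −0.16, *Eed* at 0.17, *Rnf2* at 0.16, *Mtf2* at 0.09, *Ezh2* at 0.08, *Pcgf6* at 0.02 and *Ring1* at −0.02.

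In SP and 3p the lowest values against scr were those of *Rnf2* and *Mtf2*. *Rnf2* had log2 fold changes of −0.24 in SP (95% interval with the block −0.42 to −0.05) and −0.36 in 3p (−0.55 to −0.17, limma adjusted p = 0.107). *Mtf2* had −0.26 in SP and −0.28 in 3p, and *Suz12* had −0.20 and −0.17. The other 7 members lay between −0.10 and 0.09 in SP and between −0.14 and 0.11 in 3p. In SATS these genes lay on the other side of scr. *Mtf2* had 0.32 (0.12 to 0.51, limma adjusted p = 0.0770), *Rnf2* 0.30 (0.12 to 0.49, adjusted p = 0.0783), *Eed* 0.27 (0.10 to 0.45, adjusted p = 0.0908) and *Suz12* 0.21 (0.06 to 0.36). *Jarid2* was at −0.16, *Cbx7* at −0.09, *Ezh2* at 0.09, *Ring1* at 0.07, *Pcgf6* at 0.03 and *Kdm2b* at −0.22 in SATS. None of the members passed the threshold in SATS against scr in limma. DESeq2 with the block called *Eed*, *Mtf2* and *Rnf2* in SATS, beside 853 of all 17597 genes.

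**Figure D3:**
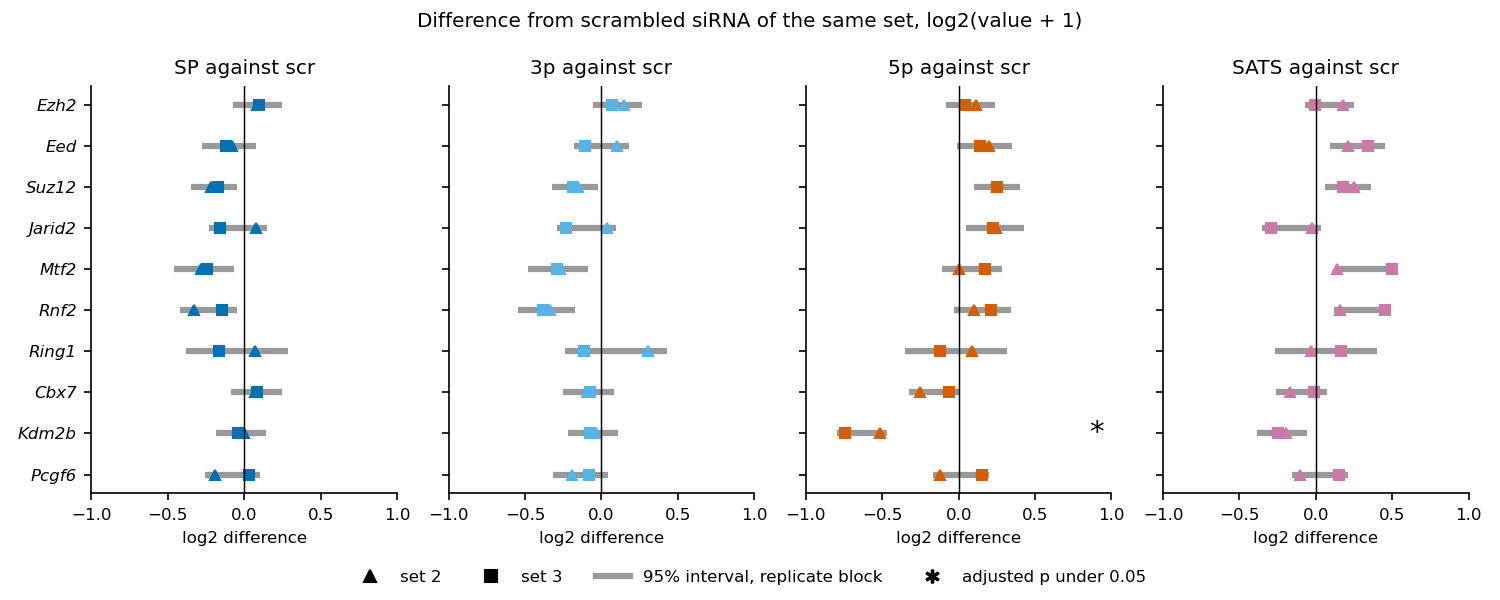
Log2 difference from scr of the same set, on log2(value + 1), for each Polycomb gene and siRNA in sets 2 (triangles) and 3 (squares). Grey bars are 95% intervals of the fit with the set as a block, and the star marks the only call, *Kdm2b* in 5p, at −0.63.

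The mean of the 4 KDs against scr gave values close to 0 for most members, between −0.06 and 0.09 for all except *Kdm2b* at −0.23 (95% interval with the block −0.36 to −0.10, limma adjusted p = 0.141). No member was called with or without the block, where the shares of all genes called were 0.109% and 0.00606%. At an unadjusted limma p under 0.05 there was 1 member with the block, *Kdm2b*, and 0 without it. The shares of all genes under it were 12.2% and 2.05%. edgeR and DESeq2 called 0. The median size of the members' log2 fold changes was 0.04, beside 0.10 over all genes.

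More members passed the test between siRNAs than against scr. *Stag1* itself had a log2 difference of 0.15 between 5p and 3p (95% interval with the block −0.05 to 0.36). With the block, 4 of 10 members differed between 5p and 3p, where 3.26% of all genes were called. *Suz12*, *Mtf2* and *Rnf2* were higher in 5p and *Kdm2b* was lower. Without the block limma called 0 of 10 members and 0% of all genes. At an unadjusted p under 0.05 were 5 members, the 4 above and *Jarid2*, where 4.09% of all genes were under it.

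*Rnf2*, the main H2A ubiquitin ligase gene of these cells by level, was at 1507 in 5p and 1115 in 3p of set 2. In set 3 it was at 1795 and 1189. The log2 difference was 0.51 (95% interval 0.33 to 0.70, limma adjusted p = 0.00523 with the block). *Suz12*, the PRC2 scaffold, was at 3879.6 in 5p and 2939 in 3p of set 2 and at 4349 and 3199 in set 3, a log2 difference of 0.42 (0.27 to 0.57, adjusted p = 0.00458). Both 5p libraries lay above both 3p libraries for each of these genes. How many of all genes separate in this way was not counted, so this adds nothing to the test.

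*Mtf2* was at 4851 and 5119 in 5p and at 4003 and 3698 in 3p, a log2 difference of 0.37 (95% interval 0.18 to 0.57, limma adjusted p = 0.0385 with the block). *Kdm2b* was at 1386 and 1427 in 5p and at 1937 and 2277 in 3p, a log2 difference of −0.58 (−0.74 to −0.41, adjusted p = 0.00117). *Jarid2* had a difference of 0.33 (0.14 to 0.52, adjusted p = 0.0597) and *Eed* one of 0.17 (−0.01 to 0.35). *Ezh2*, *Cbx7*, *Ring1* and *Pcgf6* lay between −0.11 and 0.15, with intervals that held 0, and for *Ezh2* the interval ran from −0.19 to 0.13.

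With 1 of the 4 libraries left out, so that 5p or 3p held 1 library with the spread of the other groups, *Kdm2b* passed the threshold between 5p and 3p in all 4 fits. Without 3p of set 3, or without 5p of set 3, it was the only member called, and the adjusted p of *Rnf2* was 0.104 and 0.0775, that of *Suz12* 0.0724 and 0.0804, and that of *Mtf2* 0.375 and 0.370. Without 5p of set 2, *Mtf2* was lost as well (adjusted p = 0.076). In these fits the log2 difference ran from 0.41 to 0.44 for *Suz12*, from 0.42 to 0.61 for *Rnf2* and from 0.29 to 0.45 for *Mtf2*.

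The other 5 pairs of siRNAs were compared after these values were seen, so their tests are descriptions of the same libraries. Adjusted p-values are over genes within a pair and not over the pairs, which share libraries. All calls are with the block. 3p against SP, which share siRNAs, called 0 of 10 members (0.097% of all genes), and edgeR and DESeq2 called 0. At an unadjusted limma p under 0.05 there were 0 members, where 6.02% of all genes were under it. The largest log2 difference between them was −0.16, for *Cbx7* (95% interval −0.33 to 0.00).

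5p against SP called the 4 members that differed between 5p and 3p (5.76% of all genes), with *Suz12* at 0.45, *Rnf2* at 0.39, *Mtf2* at 0.35 and *Kdm2b* at −0.61. SATS against 3p called *Rnf2* (0.66), *Mtf2* (0.60) and *Suz12* (0.38), where 3.06% of all genes were called. SATS against SP called those and *Eed* (0.37), where 9.42% of all genes were called. *Eed*, whose product reads the methyl mark that PRC2 makes, was at 2456 and 2365 in SATS and at 2016 and 1719 in SP.

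5p against SATS called *Kdm2b* at −0.41 and *Jarid2* at 0.39 (6.42% of all genes). *Jarid2* was at 9665 and 11068 in 5p and at 8023 and 7711 in SATS. *Suz12* differed little between them, by 0.04 (95% interval −0.11 to 0.19). *Stag1* itself was higher in SATS than in 3p by 1.40 on the log2 scale, so the pairs with SATS also differ in the extent of KD. *Ezh2* was called in none of the 6 pairs, and its log2 differences were between −0.03 and 0.02.

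**Figure D4:**
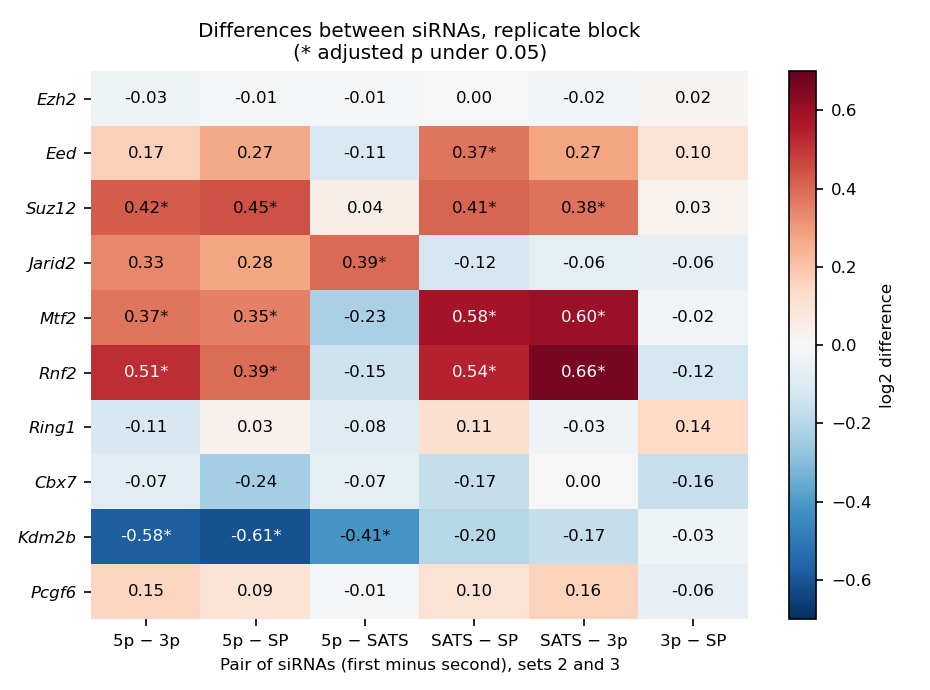
Log2 differences (colour and printed value, first siRNA minus second) between each pair of siRNAs in sets 2 and 3 for the 10 Polycomb genes, from the fit with the set as a block. Stars mark an adjusted p under 0.05. *Suz12*, *Mtf2* and *Rnf2* are starred in the 4 pairs of 5p or SATS with SP or 3p, *Kdm2b* in the 3 pairs with 5p, and no gene in 3p against SP.

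The control libraries give the size of difference seen without KD. Untreated cells of set 2 differed from scr by −0.18 to 0.11 on the log2 scale over the 10 members (median −0.06), with *Suz12* lowest and *Cbx7* highest. Luciferase siRNA in set 3 differed from scr by −0.13 to 0.09 (median 0.02), with *Kdm2b* lowest and *Suz12* highest. Each is 1 library, so no test was made. Several differences lay outside these ranges, among them *Kdm2b* in 5p (−0.52 and −0.75) and *Mtf2* and *Rnf2* in 3p (−0.27 and −0.29, −0.33 and −0.38). So did *Suz12* and *Jarid2* in 5p (0.25 and 0.25, 0.25 and 0.23) and *Eed* in SATS (0.21 and 0.34). *Suz12* in 3p (−0.15 and −0.19) lay near the value of untreated cells. *Rnf2* and *Mtf2* were also below scr in untreated cells, at −0.17 and −0.10, and above it in luciferase, at 0.07 each. Over all genes, the median size of the difference from scr was 0.13 in the untreated and 0.11 in the luciferase library.

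Over the 12 libraries of sets 2 and 3, with set means removed, *Mtf2* and *Rnf2* had the most similar values of all pairs of members (Pearson's r = 0.97). The libraries share sets and scaling, so these correlations are descriptions. The gene of the 67 Polycomb genes most like *Suz12* was *Rnf2* (0.88), most like *Eed* was *Mtf2* (0.88), and most like *Pcgf6* was *Rnf2* (0.82). *Kdm2b* was most like *Ezh1* (0.96) and least like *Phc1* (−0.76), and *Jarid2* was most like *Phc1* (0.95). *Ezh2* was most like *Rybp* (0.88), with r between −0.56 and 0.16 to the other members.

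The bases just before the start sites of the members that differed between 5p and 3p are shown to place these genes among CpG-rich promoters, with each CpG in capitals (80 bases each, RefSeq, build GRCm38.p6, 5′ to 3′ on the strand of the gene). *Kdm2b* is shown at its downstream start, that of the short transcripts, since the bases before its upstream starts lie in annotated exons.
Rnf2, chr1:151500992-151501071, minus strand: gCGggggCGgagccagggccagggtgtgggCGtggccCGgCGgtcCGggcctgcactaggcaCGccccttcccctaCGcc
Suz12, chr11:79993026-79993105, plus strand: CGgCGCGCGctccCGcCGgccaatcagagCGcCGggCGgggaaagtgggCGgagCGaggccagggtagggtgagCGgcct
Mtf2, chr5:108065594-108065673, plus strand: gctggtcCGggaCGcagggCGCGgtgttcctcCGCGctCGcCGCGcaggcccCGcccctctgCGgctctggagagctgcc
Kdm2b, chr5:122900368-122900447, minus strand: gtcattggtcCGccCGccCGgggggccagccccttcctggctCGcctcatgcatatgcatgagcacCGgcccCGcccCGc

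These stretches hold 8, 12, 11 and 7 CpG. All 10 members matched RefSeq, at 15 start sites, and their windows of 300 bases (250 before to 50 after a start) held 2 to 49 CpG, with a median of 30. Over all 32851 windows the median was 7, with quartiles of 3 and 20. The lowest member window, with 2 CpG, was an internal start of *Mtf2*. The GC box GGGCGG, searched on both strands, was in 11 of the 15 member windows (8 of 10 members) and in 35.7% of all windows. TATAAA was in 1 of the 15, at *Jarid2*, and in 13.6% of all windows. CCGGAAG, an ETS motif, was in no member window and in 8.86% of all windows. Motifs of different factors can overlap, and a match is no evidence of binding. CpG-rich starts were shared by members that differed between siRNAs and members such as *Ezh2* (31 CpG) that did not pass the test.

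The other genes of the Polycomb system were taken from lists of 57 genes, all in the table. With the block, 0 of 57 passed the test in SP, 3p, SATS, SP over 3 sets and the mean of KDs. At an unadjusted p under 0.05 these comparisons had 12, 6, 14, 7 and 8 of the 57, where 12.5%, 10.4%, 18.8%, 5.85% and 12.2% of all genes were under it. In 5p, 3 of 57 fell and 0 rose, where 1.71% of all genes fell and 0.661% rose. Without the block, 0 passed in any of these comparisons.

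*Ezh1*, the second methyltransferase of PRC2, had 223 and 212 in 5p against 357 and 356 in scr, a log2 fold change of −0.71 (standard error 0.109, limma adjusted p = 0.00374 with the block). It also fell against 3p, by 0.61 on the log2 scale. *Wdr5*, a WD40 protein of variant PRC1 and of other chromatin complexes, had 2052 and 2025 in 5p against 2951 and 2789 in scr, a log2 fold change of −0.49 (adjusted p = 0.00209). *E130012A19Rik*, the row of *Epop*, an accessory PRC2 gene, was at −0.46 in 5p (adjusted p = 0.0223 with the block), with −0.30 in set 2 and −0.62 in set 3. In set 2 it stood at −0.11 in SP and −0.07 in 3p, in set 3 at −0.56 and −0.47, and in the luciferase library of set 3 at −0.32.

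In 5p against 3p with the block, 1 of the 57 genes was higher and 3 were lower, where 1.3% of all genes were higher and 1.95% lower. *Phf19* and *Cbx6* are named here after their values were seen. *Phf19*, a relative of *Mtf2*, was higher in 5p (0.51, limma adjusted p = 0.0277 with the block), with 211 and 224 in 5p and 170.4 and 137 in 3p. *Cbx6*, a chromobox gene, was lower (−0.31, adjusted p = 0.0359), as were *Ezh1* and *Wdr5*. The 3 of these genes with the highest mean values, *Usp7*, *Phc1* and *Rbbp4*, were at −0.09, 0.21 and −0.10 in 5p against scr and did not pass. The median log2 fold change of the 57 genes in 5p was −0.04, beside 0.01 over all genes and 0.08 for the 10 members.

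In the 5 pairs compared later, limma with the block called 5 of the 57 genes in 5p against SP, 1 higher and 4 lower (5.76% of all genes called). It called 7 in 5p against SATS, 3 higher and 4 lower (6.42%), and 8 in SATS against SP, 1 higher and 7 lower (9.42%). In SATS against 3p it called 1, lower (3.06%), and in 3p against SP 0 (0.097%). *Bmi1*, a core gene of canonical PRC1, was lower in 5p than in SP (−0.63, limma adjusted p = 0.0173) and SATS (−0.53, adjusted p = 0.0350). *Scmh1* (0.42) and *Auts2* (0.42) were higher and *Sfmbt2* (−0.33) was lower in 5p than in SATS. *Kdm2a*, a relative of *Kdm2b*, was lower than in SP in both 5p (−0.35) and SATS (−0.32). *Sfmbt1* (−0.54), *Auts2* (−0.43) and *Mbd6* (−0.41) were also lower in SATS than in SP, and *Sfmbt1* was lower in SATS than in 3p (−0.50). *Ezh1* and *Wdr5* were lower in 5p than in SP and SATS as well.

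Developmental regulators of the kind known as Polycomb targets were taken from a list of 48, of which 45 were in the table and 42 passed the filter of the panel. Their mean values had a median of 9.68, with 24 of 45 under 10, and *Nodal* stood highest at 949. Polycomb binding was not measured here. With the block, 0 of 42 passed the test in SP, 3p or SATS against scr, with 6, 5 and 2 at an unadjusted p under 0.05, where 12.5%, 10.4% and 18.8% of all genes were under it. In 5p, 1 of 42 rose and 1 fell, where 0.661% of all genes rose and 1.71% fell. At an unadjusted limma p under 0.05 there were 6 of 42 in 5p, where 15.7% of all genes were under it. *Nkx2-9*, a homeobox gene, rose in 5p by 0.65 (limma adjusted p = 0.0472 with the block and 0.959 without it), from 34.8 and 36.9 in scr to 57.7 and 55.97 in 5p. In SP it had 63.2 and 56.6, in 3p 53.6 and 52.9, and in the luciferase library 50.04, which is also above scr. *Wnt6*, a signalling ligand gene, fell in 5p, with 122 and 58.3 against 167 and 108 (log2 fold change −0.67, limma adjusted p = 0.0282 with the block and 1.00 without it), and stood at 81.3 in the luciferase library. Among the 5 later pairs, *Nkx2-9* was called lower in SATS than in SP (−0.86), 3p (−0.70) and 5p, and *Dlx5*, a homeobox gene, lower in SATS than in SP (−1.44, limma adjusted p = 0.0463 with the block). *Nodal* and *Pax6*, which were among the targets with the highest mean values, had log2 fold changes of 0.06 and 0.13 in 5p and did not pass. Over 3 sets, limma with the block called 0 of the 41 tested targets in SP. At an unadjusted p under 0.05 there were 2, where 5.85% of all genes were under it. The median log2 fold change of these targets in SP over 3 sets was 0.60, beside 0.01 over all genes. In sets 2 and 3 it was 0.15 in SP, 0.11 in 3p, 0.10 in 5p and −0.01 in SATS. The 0.60 includes the shallow set 1, where 3 SP libraries stand against 1 scr library.

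Markers of other cell types were present. In sets 2 and 3, the sums of the primitive endoderm, fibroblast and 2-cell markers varied most between sets. The summed level of 8 primitive endoderm markers ran from 5264 to 11039 in the 2 scr libraries of these sets and from 5186 to 11774 in 5p. Of the 8, 1, *Lama1*, was called higher in 5p against scr and against 3p with the block. The sum of 7 fibroblast markers ran from 530.0 to 2898 in scr, from 331 to 2692 in 5p and from 446 to 2615 in 3p, and was 5772 in untreated cells. With the block, *Col1a1* was called lower in 5p against scr and *Col3a1* higher in 5p against 3p, and *Lum* was at 0 in 7 libraries. The sum of 6 neural markers ran from 4015 to 4568 in scr, from 2667 to 4043 in 5p and from 4002 to 5163 in 3p. *Nes* was called lower in 5p against both scr and 3p with the block. The sum of 6 2-cell markers ran from 29.8 to 242 in scr and from 72.2 to 234 in 5p. The part of these markers in the differences of the Polycomb genes was not tested.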

How the data were processed

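RNA-seq libraries of serum-grown mESCs (16) were grouped by the siRNA and set in the sample labels. The authors used hisat2 (mm10) for alignment and featureCounts for counts per gene, and deposited a normalized signal, these counts divided by a DESeq2 size factor per library. A second deposited table, of set 1 in CPM from edgeR, holds 4 of the same libraries and was not used, and columns of the authors' comparisons were not used. All values (100%, tolerance 0.01) were whole multiples of the value of 1 read, so reads were recovered. Libraries held 9023224 to 45660840 reads on genes, which bounds counting error only. No column of values was left without a sample. Replicates of a group differed by more than counting noise (chi-square per degree of freedom 6.15 to 82.6 in 8 pairs).

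log2(value + 1) was fitted with limma 3.58.1 (eBayes with trend, R 4.3.3). Genes needed a summed value of 10 or more, with Benjamini-Hochberg adjustment over all genes and a threshold of 0.05. Fold changes on this scale understate those of low genes. The mean of SP 1a, 1b and 1c stood for 1 sample in the comparison over 3 sets. The check of pairing gave a mean correlation of deviations from group means of 0.80 (0.77 to 0.82) for 3 pairs of same-numbered SP and scr samples and 0.86 in the panel, so the replicate sets, numbered in the labels, were taken to pair the samples. With 2 sets the panel's deviations mirror each other by design. edgeR 4.0.16 and DESeq2 1.42.0 were run on the recovered reads. Other alternatives changed the pseudocount, filter, scaling (without *Rn45s*), controls and libraries kept. The limma, edgeR and DESeq2 steps were tested on simulated data.

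Exon lengths and overlaps came from GENCODE on GRCm38, promoters from RefSeq. The members and gene lists were chosen with earlier results of these data known. Every member was described in every comparison, together with list genes past the threshold (at most 10 a list, by smallest adjusted p) and the 3 of each list with the highest mean value. A gene that this rule named in 1 list is not reported here.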

Additional observations from a re-analysis of the deposited data

Results flagged for a closer look

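Among the members, 4 were picked out because the effects of 2 siRNAs to the same gene differed by a test of the difference itself. In 5p against 3p with the replicate set as a block, *Kdm2b* differed by −0.58 on the log2 scale (standard error 0.077), *Suz12* by 0.42 (0.070), *Mtf2* by 0.37 (0.091) and *Rnf2* by 0.51 (0.087). *Suz12* and *Rnf2* lay above scr in both 5p libraries and below it in both 3p libraries. *Mtf2* lay below scr in both 3p libraries, and its log2 differences in 5p were 0.0030 in set 2 and 0.18 in set 3. *Kdm2b* lay below scr in all 4. Without the block the limma adjusted p-values were 0.65 to 1.00. In the 10 groups of 5 SP libraries, 1 for each member, no library stood apart from the other 4 by Dixon's test.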

How the results depend on the processing

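Without the block none of the 7 planned comparisons called a member under another pseudocount, filter, scaling, tool or library left out, nor under other controls, which were tried in the panel alone. The 5 added pairs were run in limma without and with the block and in edgeR and DESeq2 with it. With a replicate block by set, limma called 1 member in 5p against scr and 4 in 5p against 3p, and the block changed no other limma count against scr. edgeR with the block gave 1 and 4, beside 432 and 551 of all 17597 genes. DESeq2 with the block gave 1 in 5p, 5 in 5p against 3p and 3 in SATS, beside 507, 586 and 853 of 17597. Scaling to reads without *Rn45s* with the block gave 1 and 5, beside 414 and 561 of all 16534 genes. Untreated and luciferase libraries were also joined to scr with the block. This gave 1 member in 3p, 3 in 5p, 4 in SATS, 5 in 5p against 3p and 1 in the mean of KDs. Calls over all 16684 genes were then 219, 1119, 1785, 685 and 746 in the same order. Leaving out 1 library of the panel at a time left 1 library in a group. With the block, calls among the members and over all genes both changed with the library left out. Counts of members from these fits are therefore not given here. The block combined with scaling, joined controls or a library left out was chosen after seeing the data. Over all genes, limma called 1 gene in SP, 1 in 3p, 2 in 5p, 0 in SATS, 0 in 5p against 3p and 1 in the mean of KDs without the block, and 123, 47, 391, 436, 537 and 18 with it.

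Of 1580 alternative log2 fold changes of the members in the 7 planned comparisons, 54 passed the threshold where the fit without the block did not, and 1 changed sign from a value above its standard error: *Eed* in 5p against 3p ran from −0.0301 without 3p of set 3 to 0.3674 without 3p of set 2. A further 101 changed sign from values smaller than their standard error, which were given no direction. Counting error was largest for *Ring1* in set 1, and the 2 libraries per siRNA limit the panel.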
